A study of Mus musculus with 18 samples.

Results

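Ribosome biogenesis genes encode the proteins that transcribe ribosomal RNA and turn it, inside the nucleolus, into the 2 ribosomal subunits. The set described here holds 46 named genes, of 19937 genes read on the arrays: Myc, 7 genes of RNA polymerase I and its initiation factors, 12 of nucleolar factors and small nucleolar ribonucleoproteins (snoRNPs), 14 of small subunit maturation and 12 of large subunit maturation. They were chosen by name, with earlier results of these data known. Of the 46 genes 44 have a probe set that names them alone, and all 44 passed the filter that kept 15711 genes for testing. Ppan and Noc2l, both of the large subunit group, were not analysed here.

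Total RNA of mouse embryonic fibroblasts of the strain 129sv/ev was read on 18 arrays, in 6 groups of 3 arrays that the titles number 1, 2 and 4. The groups are Nfat5 knockout (KO) cells of the line 5.1 in hypertonic and in isotonic medium, wild-type (WT) cells of the line 5.4 treated beforehand with 100 nM Torin1 for 1 h and kept in hypertonic or isotonic medium, and untreated WT cells in hypertonic and in isotonic medium. Nfat5 is the transcription factor behind the induction of osmolyte genes in hypertonic medium, and Torin1 blocks the kinase mTOR in both of its complexes. No KO cells with Torin1 are among the arrays. The titles give 500 for hypertonic and 300 for isotonic medium without a unit, and the labels do not state how long cells stayed in hypertonic medium, whether a line is 1 clone or what the array numbers stand for. Each genotype is 1 line, so genotype and line cannot be told apart. The labels do not say that arrays within a group are separate cultures, and the p-values therefore describe the spread among arrays, which may be technical.

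The array titled isotonic KO 1 carries a genotype label of the WT line and was kept in the KO group by its title. Over the 5007 genes that differed between the genotypes in hypertonic medium, it lay at 1.01 on a scale where isotonic WT arrays average 0 and isotonic KO arrays 2 and 4 average 1. Nfat5 had levels of 9.73 to 10.22 log2 in hypertonic KO cells, 9.72 to 9.83 in isotonic KO cells, 10.01 to 10.48 in hypertonic WT cells with Torin1, 10.03 to 10.40 in isotonic WT cells with Torin1, 10.18 to 10.77 in hypertonic WT cells and 9.94 to 10.13 in isotonic WT cells. Its probe set still read signal in KO cells, and whether its probes lie in the deleted part is not given. The fibroblast genes Col1a1, Col1a2, Pdgfrb, Fn1 and Vim lay between 11.8 and 14.1 log2 on all 18 arrays and Col3a1 between 10.2 and 12.1, but other fibroblast markers were lower or varied, with Pdgfra at 8.32 to 11.7, S100a4 at 7.79 to 11.2, Dcn at 7.27 to 13.7, Thy1 at 6.69 to 11.3 and Lum at 4.14 to 7.68. Over whole lists, 6 macrophage markers lay between 5.03 (Adgre1) and 9.36 (Csf1r), 6 epithelial markers between 5.70 (Epcam) and 8.80 (Cdh1), 5 endothelial markers between 5.32 (Kdr) and 9.09 (Tek) and 5 skeletal muscle markers between 5.18 (Myh3) and 8.57 (Acta1). The fibroblast marker list had 5 of 11 genes higher in KO than in WT cells in hypertonic medium (all genes 13.8%). In isotonic medium 4 of 11 were higher (1223 of all 15711 genes). Of 4 macrophage markers tested, 1 was higher in hypertonic than in isotonic medium in each of the 3 comparisons, Itgam in KO cells (1.18 ± 0.22 log2) and in WT cells (0.83 ± 0.22) and Csf1r in WT cells with Torin1 (1.04 ± 0.24). Of all genes 12.9% were called higher in KO cells, 3.94% in WT cells and 1.65% in WT cells with Torin1. The summed level of all 6 macrophage markers lay at 9.21 to 9.88 log2 in hypertonic and 8.99 to 9.69 in isotonic KO cells, at 9.53 to 10.03 in hypertonic and 9.03 to 9.23 in isotonic WT cells with Torin1, and at 9.70 to 9.90 in hypertonic and 8.95 to 9.41 in isotonic WT cells. Their part in the results below was not tested. In such bulk RNA, fewer cells of a type and less RNA per cell cannot be told apart.

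Ribosome synthesis starts when RNA polymerase I, brought to ribosomal DNA by Rrn3 and by the DNA-binding protein Ubtf, transcribes a long precursor RNA. Box C/D snoRNPs methylate that precursor and box H/ACA snoRNPs convert uridines to pseudouridine, the small subunit processome folds and cuts one part of it, and another set of assembly factors builds the large subunit around the other. The transcription factor Myc binds the promoters of many of these genes with its partner Max. In proliferating cells such as fibroblasts, growth signals that pass through mTOR raise the rate of ribosome synthesis.

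The DNA element that Myc and Max are known to bind best, the E-box with the letters CACGTG, was searched in promoter windows of 300 bases, from 250 bases before a gene's start to 50 after it. It reads the same on both strands, so 1 search covers both, and no other motif was searched. RefSeq (GRCm38.p6) windows were found for 39 of the 46 genes and none for Myc, Npm1, Fbl, Rrp12, Rrs1, Bop1 and Gnl2. The element stood in the window of 9 of the 39 genes (23.1%: Ltv1, Mybbp1a, Nop2, Pes1, Pno1, Rrn3, Tsr1, Utp20 and Wdr43), against 1559 of 17491 protein-coding genes (8.91%) and 2187 of all 27025 genes with a window (8.09%). Of 11 genes of the set that rose in hypertonic KO cells, described below, 10 have a window and 4 of these hold the element, Nop2, Rrn3, Utp20 and Wdr43. Of the 7 genes that rose in hypertonic WT cells all 7 have a window and 0 hold it, nor does that of Polr1a, the 1 gene that rose with Torin1. These counts depend on the threshold. In KO and WT cells Nop2 changed by 0.84 and 0.71 log2, and Rrn3 by 0.34 and 0.35. Utp20 changed by 0.63 and 0.45, and Wdr43 by 0.56 and 0.18. In the fit used for these counts only the KO changes of these 4 genes passed, those of Rrn3 and Wdr43 not without isotonic KO array 1. In a fit that accounts for array number, described below, the WT changes of Nop2 and Rrn3 passed too. There 23 genes of the set rose in hypertonic WT cells, and the element was not counted among them. The windows of these 4 genes are shown because they hold the element, and that of Bysl, which rose in both genotypes, because it does not. The windows were chosen after these results were known. Capitals mark the element, which lies at −60 to −55 from the start of Nop2, at −215 to −210 and −48 to −43 in Rrn3, at 38 to 43 after the start in Utp20 and at 18 to 23 in Wdr43. Each sequence runs 5′ to 3′ along its gene, for Nop2 at chr6:125131633-125131932 (plus strand), Rrn3 at chr16:13780449-13780748 (plus strand), Utp20 at chr10:88826765-88827064 (minus strand), Wdr43 at chr17:71615965-71616264 (plus strand) and Bysl at chr17:47611443-47611742 (minus strand). A match of these letters is a description of the window and does not show that a factor sits there.
Nop2: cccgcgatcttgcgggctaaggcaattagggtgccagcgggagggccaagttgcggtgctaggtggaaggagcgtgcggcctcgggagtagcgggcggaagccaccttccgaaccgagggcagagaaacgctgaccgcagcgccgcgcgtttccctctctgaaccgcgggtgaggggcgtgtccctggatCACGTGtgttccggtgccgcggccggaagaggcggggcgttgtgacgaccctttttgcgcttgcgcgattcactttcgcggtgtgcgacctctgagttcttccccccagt
Rrn3: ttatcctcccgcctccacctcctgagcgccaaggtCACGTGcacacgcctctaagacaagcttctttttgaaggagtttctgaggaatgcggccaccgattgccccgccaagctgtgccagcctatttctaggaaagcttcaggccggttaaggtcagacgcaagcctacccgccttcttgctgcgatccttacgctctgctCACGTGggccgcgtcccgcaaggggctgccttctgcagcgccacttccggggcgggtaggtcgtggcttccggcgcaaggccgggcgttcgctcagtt
Utp20: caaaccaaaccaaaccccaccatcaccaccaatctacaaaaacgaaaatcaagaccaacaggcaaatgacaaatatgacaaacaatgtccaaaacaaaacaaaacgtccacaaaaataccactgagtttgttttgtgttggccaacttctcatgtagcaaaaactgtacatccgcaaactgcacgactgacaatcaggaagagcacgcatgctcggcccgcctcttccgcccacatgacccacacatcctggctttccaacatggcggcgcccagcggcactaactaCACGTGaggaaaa
Wdr43: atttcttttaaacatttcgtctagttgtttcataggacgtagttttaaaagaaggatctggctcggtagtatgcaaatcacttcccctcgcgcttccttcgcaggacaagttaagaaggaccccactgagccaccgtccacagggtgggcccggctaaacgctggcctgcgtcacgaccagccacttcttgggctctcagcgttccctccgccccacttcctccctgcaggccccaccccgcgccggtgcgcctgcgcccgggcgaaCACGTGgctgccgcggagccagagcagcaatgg
Bysl: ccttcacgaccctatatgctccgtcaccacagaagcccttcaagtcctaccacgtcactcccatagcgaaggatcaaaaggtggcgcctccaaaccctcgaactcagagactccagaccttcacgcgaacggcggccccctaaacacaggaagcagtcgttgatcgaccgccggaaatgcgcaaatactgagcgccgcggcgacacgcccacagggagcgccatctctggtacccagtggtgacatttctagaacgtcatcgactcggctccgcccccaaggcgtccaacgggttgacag

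Hypertonic medium against isotonic medium is the first question of the design, asked in KO cells, in WT cells with Torin1 and in WT cells. In KO cells 11 of the 44 genes rose and 1 fell (27.3% of the set, against 30.1% of all genes tested, 12.9% higher and 17.2% lower). Ddx21, Gnl3, Bysl, Nop2, Rrs1, Utp20, Heatr1, Polr1c, Wdr43, Nob1 and Rrn3 rose and Ubtf fell. In WT cells with Torin1 the only gene of the set to pass was Polr1a, which rose (2.27% of the set, against 3.37% of all genes, 1.65% higher and 1.72% lower). In WT cells 7 genes rose and 0 fell (15.9% of the set, against 8.24% of all genes, 3.94% higher and 4.3% lower), namely Dkc1, Bysl, Nolc1, Nop16, Polr1a, Rrp1b and Nop10. A gene passed at an adjusted p below 0.05 in limma, which fitted 1 mean per group to all 18 arrays and adjusted over all 15711 genes.

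The direction was shared more widely than the calls. The change was above 0 for 39 of 44 genes in KO cells, 40 of 44 in WT cells with Torin1 and 41 of 44 in WT cells, against 53.1%, 53.5% and 54.6% of all genes in those comparisons. The median change of the set was 0.32 log2 in KO cells, 0.38 in WT cells with Torin1 and 0.38 in WT cells, where the median of all genes was 0.02 in each. A typical 95% interval of a single gene reached 0.40 log2 to either side. At an unadjusted p below 0.05, 19 genes of the set passed in KO cells (all genes 39.2%), 21 in WT cells with Torin1 (all genes 16.6%) and 25 in WT cells (all genes 22.7%).

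**Figure D1:**
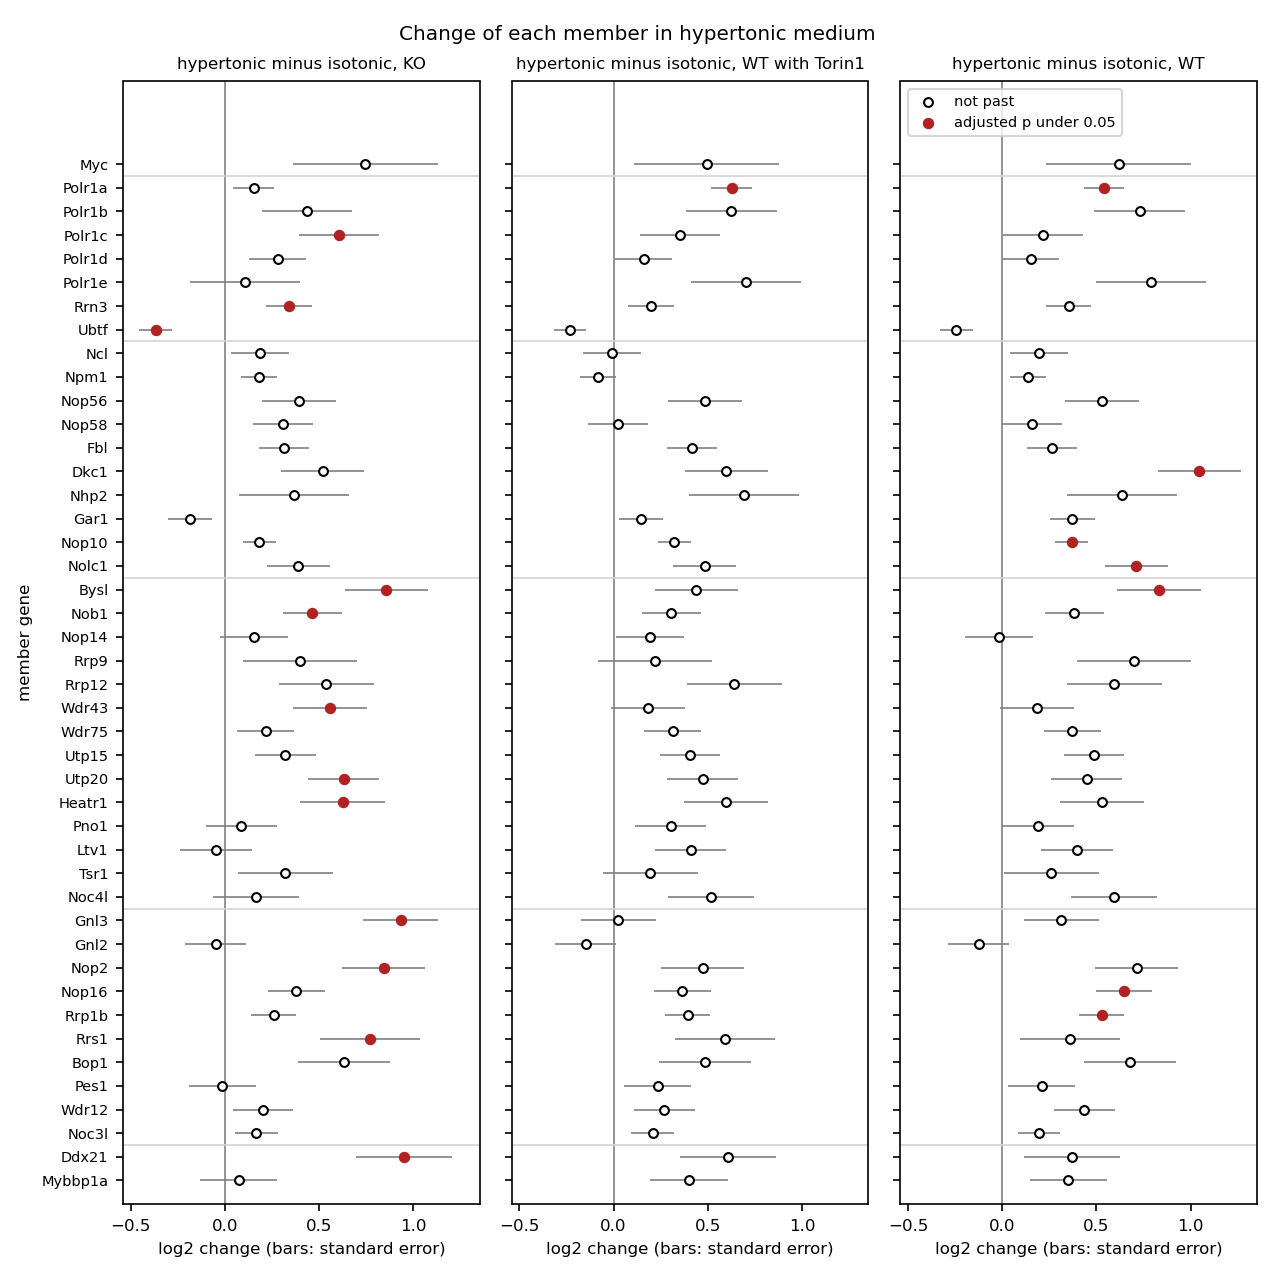
Change of each of the 44 genes in hypertonic against isotonic medium (log2, horizontal axis, with bars of 1 standard error from limma) in KO cells, WT cells with Torin1 and WT cells, genes down the page by role, with filled points for genes past the threshold. Most points lie right of 0 in all 3 panels, with Ubtf to the left of 0 in each.

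Arrays that carry one number varied together across groups, and the same fit with the array number as a block raised the counts. With that block 20 genes rose and 1 fell in KO cells (all genes 36.3%), 10 rose and 0 fell in WT cells with Torin1 (all genes 7.86%), and 23 rose and 0 fell in WT cells (all genes 15%). Fitted on the arrays of its own comparison alone, 17 genes of the set rose and 1 fell in KO cells (all genes 29.2%). In such fits 0 genes passed in WT cells with Torin1 (all genes 0.146%) and 0 in WT cells (all genes 1.7%), Polr1a included. The main fit shares 1 spread per gene over all groups. The standard deviation of the set's mean level was 0.04 to 0.09 log2 within KO groups and 0.19 to 0.31 within WT groups. The counts also turned on single arrays. In KO cells 12 genes passed, 7 when either hypertonic KO array 1 or 2 was left out, 6 when either isotonic KO array 1 or 2 was, and 5 when isotonic KO array 4 was. Without isotonic KO array 1, whose labels disagree, Ddx21, Gnl3, Bysl, Nop2, Utp20 and Ubtf still passed and Rrs1, Heatr1, Polr1c, Wdr43, Nob1 and Rrn3 did not. The 6 genes that still passed did so also when that array was counted as WT (all genes 21.9%). In WT cells with Torin1 2 passed without isotonic WT array 1 and 5 without hypertonic Torin1 array 4. In WT cells the count was 1, 2 or 15 when hypertonic WT array 1, 2 or 4 was left out, 2 or 4 when isotonic WT array 1 or 4 was, and 11 when hypertonic Torin1 array 4 was. The fits that leave out 1 array are given for the set alone. Whether their counts moved with those of all genes was not compared. In KO cells the scaling of the arrays mattered too. Setting each array's median equal moved the median of all genes there to 0.20 log2, against 0.02 as deposited, the share of all calls that were increases to 70.4% against 42.9% as deposited, and the count of the set to 27 higher and 0 lower (all genes 39%).

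**Figure D2:**
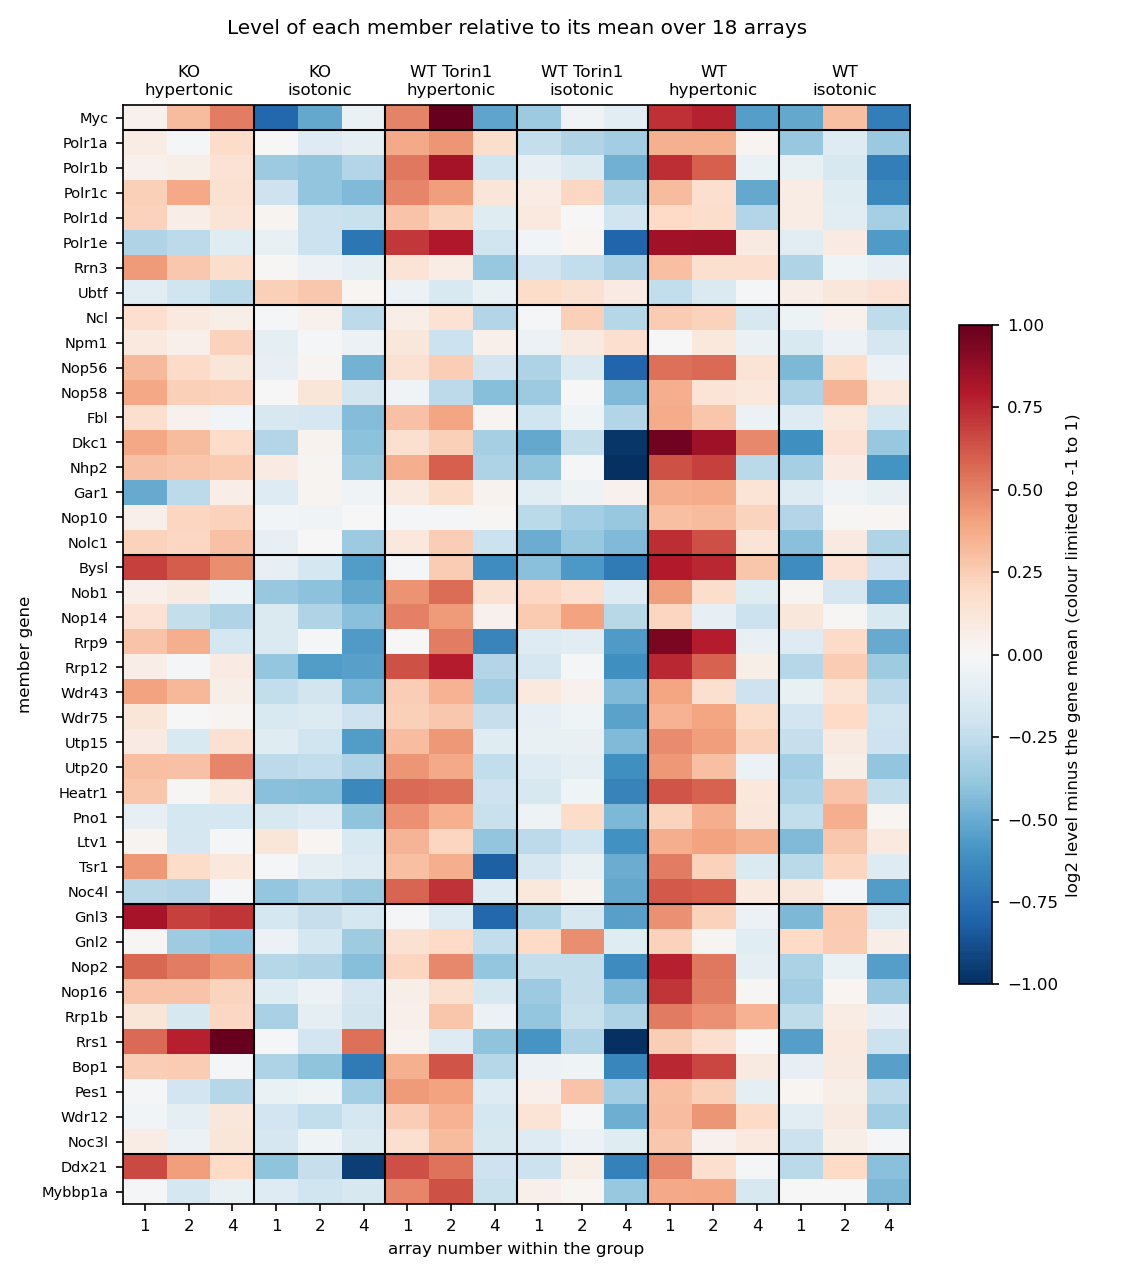
Level of each of the 44 genes on each of the 18 arrays, as the difference from the gene's own mean over all arrays (log2, colour scale limited to −1 and 1), columns by group and array number, rows by role with lines between roles. Hypertonic arrays stand above isotonic arrays of the same number for most rows. Array 4 is the lowest of its group for most rows in hypertonic WT cells and in both groups with Torin1. In isotonic WT cells array 4 is lowest for 25 rows and array 1 for 19.

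Myc, the factor that drives transcription of many genes of the set, varied widely within groups. It read 11.43, 11.70 and 11.90 in hypertonic KO cells, against 10.60, 10.87 and 11.32 in isotonic KO cells. Myc read 11.88, 12.38 and 10.85 in hypertonic WT cells with Torin1, against 11.02, 11.35 and 11.27 in isotonic WT cells with Torin1. It was at 12.11, 12.16 and 10.83 in hypertonic WT cells, against 10.88, 11.68 and 10.69 in isotonic WT cells. All 3 hypertonic KO arrays lay above all isotonic KO arrays; in WT cells hypertonic array 4 lay below all isotonic arrays with Torin1 and among them without it. No change of Myc passed, at 0.75 ± 0.39 log2 in KO cells (adjusted p = 0.17), 0.49 ± 0.39 in WT cells with Torin1 (adjusted p = 0.613) and 0.62 ± 0.39 in WT cells (adjusted p = 0.384).

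Of the 7 polymerase I genes, 2 rose and 1 fell in KO cells, 1 rose in WT cells with Torin1 and 1 rose in WT cells. Of all genes 12.9% rose and 17.2% fell in KO cells, 1.65% rose in WT cells with Torin1 and 3.94% in WT cells. The median changes of the 7 genes were 0.28, 0.35 and 0.35 log2. Polr1a, the largest subunit of the enzyme, is the only gene of the set that passed in WT cells with and without Torin1. Polr1a read 9.67, 9.59 and 9.78 in hypertonic KO cells, against 9.60, 9.47 and 9.51 in isotonic KO cells. Polr1a read 9.98, 10.04 and 9.77 in hypertonic WT cells with Torin1, against 9.36, 9.29 and 9.25 in isotonic WT cells with Torin1. Polr1a was at 9.96, 9.95 and 9.63 in hypertonic WT cells, against 9.22, 9.47 and 9.23 in isotonic WT cells. In both WT comparisons all hypertonic arrays lay above all isotonic arrays, and in KO cells the groups overlapped. Polr1a rose by 0.63 ± 0.11 log2 in WT cells with Torin1 (adjusted p = 0.00521) and by 0.54 ± 0.11 in WT cells (adjusted p = 0.00679), and both calls held without any single array. In KO cells the change was 0.15 ± 0.11 (adjusted p = 0.33), and the difference between the KO and WT responses, −0.39 ± 0.15, did not pass (adjusted p = 0.132).

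Polr1b, the second largest subunit, read 10.35, 10.37 and 10.46 in hypertonic KO cells, against 9.94, 9.91 and 10.01 in isotonic KO cells. Polr1b read 10.84, 11.14 and 10.11 in hypertonic WT cells with Torin1, against 10.23, 10.16 and 9.83 in isotonic WT cells with Torin1. Polr1b was at 11.05, 10.91 and 10.25 in hypertonic WT cells, against 10.24, 10.15 and 9.62 in isotonic WT cells. Hypertonic arrays lay above isotonic arrays in KO cells and, narrowly, in WT cells, but the changes of 0.44 ± 0.24, 0.62 ± 0.24 with Torin1 and 0.73 ± 0.24 in WT cells did not pass (adjusted p = 0.202, 0.189 and 0.0756 in that order). With the array number as a block the WT change passed (adjusted p = 0.0155). Polr1e, a subunit that can dissociate from the enzyme, read 8.51, 8.54 and 8.68 in hypertonic KO cells, against 8.73, 8.59 and 8.09 in isotonic KO cells. Polr1e read 9.51, 9.61 and 8.61 in hypertonic WT cells with Torin1, against 8.78, 8.83 and 8.01 in isotonic WT cells with Torin1. Polr1e was at 9.64, 9.65 and 8.89 in hypertonic WT cells, against 8.70, 8.89 and 8.24 in isotonic WT cells. In KO cells hypertonic arrays lay among the isotonic ones (0.11 ± 0.29 log2). In WT cells with and without Torin1 the change was 0.70 ± 0.29 (adjusted p = 0.228, with the block 0.0217) and 0.79 ± 0.29 (adjusted p = 0.112, with the block 0.00715).

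Rrn3, the factor that makes polymerase I ready to initiate, read 11.47, 11.31 and 11.22 in hypertonic KO cells, against 11.05, 10.99 and 10.94 in isotonic KO cells. Rrn3 read 11.18, 11.11 and 10.67 in hypertonic WT cells with Torin1, against 10.85, 10.80 and 10.72 in isotonic WT cells with Torin1. Rrn3 was at 11.34, 11.21 and 11.21 in hypertonic WT cells, against 10.74, 10.999 and 10.96 in isotonic WT cells. The groups did not overlap in KO cells or in WT cells, and Rrn3 rose by 0.34 ± 0.12 log2 in KO cells (adjusted p = 0.0445), a call lost in 11 of 18 fits that leave out 1 array. The WT change of almost the same size, 0.35 ± 0.12, did not pass (adjusted p = 0.086, with the block 0.0454), nor did 0.20 ± 0.12 with Torin1 (adjusted p = 0.465). Ubtf, which binds and opens ribosomal DNA, went the other way from the rest of the group. It read 10.84, 10.75 and 10.68 in hypertonic KO cells, against 11.19, 11.22 and 10.97 in isotonic KO cells. Ubtf read 10.89, 10.80 and 10.89 in hypertonic WT cells with Torin1, against 11.13, 11.10 and 11.03 in isotonic WT cells with Torin1. Ubtf was at 10.70, 10.80 and 10.94 in hypertonic WT cells, against 11.02, 11.07 and 11.09 in isotonic WT cells. In all 3 comparisons every hypertonic array lay below every isotonic array. Ubtf fell by 0.37 ± 0.09 log2 in KO cells (adjusted p = 0.00423), while −0.23 ± 0.09 with Torin1 (adjusted p = 0.176) and −0.24 ± 0.09 in WT cells (adjusted p = 0.0977) did not pass. With array medians set equal the KO change of Ubtf was −0.20, which no longer passed (adjusted p = 0.071). Polr1c and Polr1d are subunits shared with RNA polymerase III. Polr1c rose by 0.60 ± 0.21 log2 in KO cells (adjusted p = 0.0418), a call lost in 8 of 18 fits without 1 array, against 0.22 ± 0.21 in WT cells (adjusted p = 0.63). Polr1d had a change of 0.28 ± 0.15 in KO cells (adjusted p = 0.188, with the block 0.0342), while its other probe set passed there at 0.58 ± 0.13 (adjusted p = 0.00527 over all probe sets). Both changes were above 0, and without the block only the other probe set passed.

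**Figure D3:**
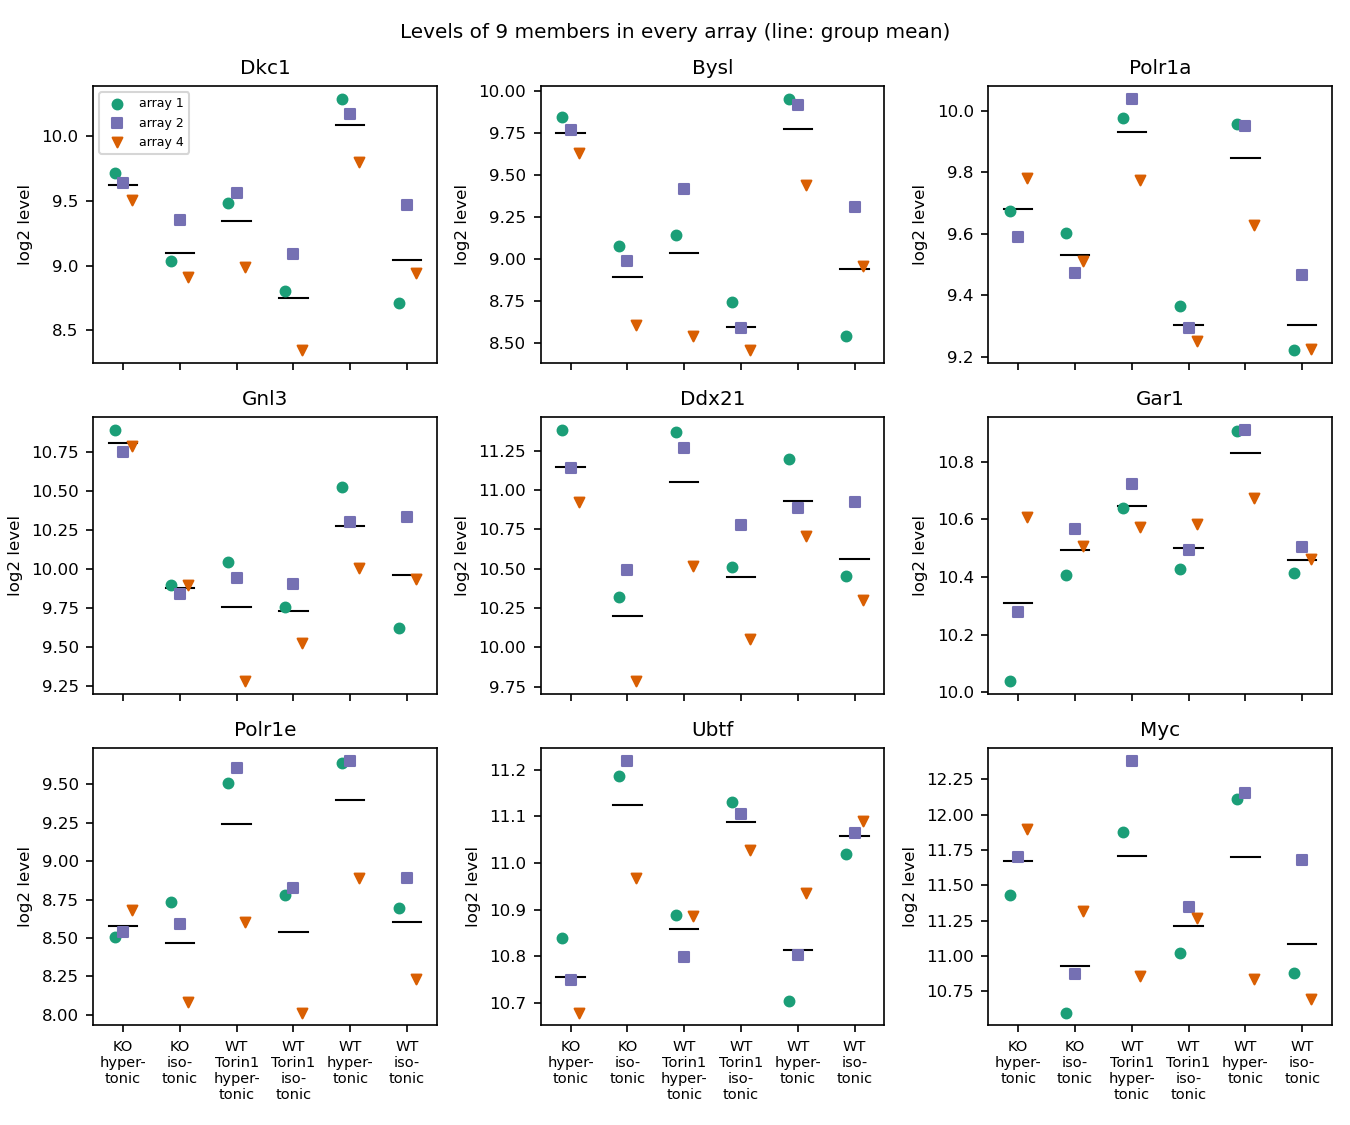
Level (log2) of 9 genes of the set on every array, each on its own axis, groups from KO to WT along the horizontal axis with hypertonic left of isotonic, 1 point per array marked by array number and a bar for the mean of 3 arrays. Polr1a is separated between media in both WT comparisons, Gnl3 in KO cells alone, and Ubtf is lower in hypertonic than in isotonic medium throughout.

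The 12 nucleolar factors and snoRNP proteins had 1 increase in KO cells, 0 in WT cells with Torin1 and 3 in WT cells. With the block 6 of them rose in WT cells with Torin1, as did 641 of all 15711 genes. The block added calls in KO and in WT cells too, as for Nop56 below. Without the block 12.9%, 1.65% and 3.94% of all genes were called higher in the same order. The medians of the group were 0.31, 0.41 and 0.37 log2. Dkc1, the pseudouridine synthase of box H/ACA snoRNPs, had the largest change of the set in WT cells. It read 9.71, 9.64 and 9.50 in hypertonic KO cells, against 9.03, 9.35 and 8.91 in isotonic KO cells. Dkc1 read 9.49, 9.56 and 8.99 in hypertonic WT cells with Torin1, against 8.81, 9.09 and 8.35 in isotonic WT cells with Torin1. Dkc1 was at 10.29, 10.17 and 9.80 in hypertonic WT cells, against 8.71, 9.47 and 8.94 in isotonic WT cells. The groups were apart in KO and in WT cells and overlapped with Torin1. Dkc1 rose by 1.05 ± 0.22 log2 in WT cells (adjusted p = 0.00916, and 0.0518 without hypertonic WT array 1), against changes of 0.52 ± 0.22 in KO cells (adjusted p = 0.0899, with the block 0.0121) and 0.60 ± 0.22 with Torin1 (adjusted p = 0.166, with the block 0.0234) that did not pass. Neither difference of response passed, at −0.53 ± 0.31 for KO against WT (adjusted p = 0.364) and −0.45 ± 0.31 for Torin1 (adjusted p = 1).

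Nop10, the smallest core protein of the same particles, varied little between arrays. Nop10 read 11.25, 11.41 and 11.42 in hypertonic KO cells, against 11.17, 11.16 and 11.20 in isotonic KO cells. Nop10 read 11.18, 11.18 and 11.21 in hypertonic WT cells with Torin1, against 10.92, 10.86 and 10.81 in isotonic WT cells with Torin1. Nop10 was at 11.49, 11.51 and 11.42 in hypertonic WT cells, against 10.90, 11.21 and 11.21 in isotonic WT cells. No hypertonic array overlapped the isotonic ones in any of the 3 comparisons. Nop10 rose by 0.37 ± 0.09 log2 in WT cells (adjusted p = 0.0176), a call lost without hypertonic WT array 1 (0.0691), hypertonic WT array 2 (0.073) or isotonic WT array 1 (0.0716). With Torin1 its change of 0.32 ± 0.09 did not pass (adjusted p = 0.0561) and passed with the block (0.0374), and in KO cells it was 0.18 ± 0.09 (adjusted p = 0.135). The remaining core proteins, Nhp2 and Gar1, had changes of 0.63 ± 0.29 and 0.37 ± 0.12 in WT cells, neither past the threshold (adjusted p = 0.211 and 0.0666), and both passed with the block (0.0172 and 0.0441). With Torin1 the change of Nhp2 was 0.69 ± 0.29 (adjusted p = 0.237, with the block 0.0187).

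Nolc1, a chaperone of snoRNPs in the nucleolus, read 9.97, 9.95 and 10.04 in hypertonic KO cells, against 9.67, 9.75 and 9.38 in isotonic KO cells. Nolc1 read 9.85, 9.99 and 9.53 in hypertonic WT cells with Torin1, against 9.25, 9.37 and 9.30 in isotonic WT cells with Torin1. Nolc1 was at 10.48, 10.39 and 9.87 in hypertonic WT cells, against 9.33, 9.84 and 9.44 in isotonic WT cells. The groups did not overlap in any comparison. Nolc1 rose by 0.71 ± 0.17 log2 in WT cells (adjusted p = 0.0167), and its changes of 0.39 ± 0.17 in KO cells and 0.48 ± 0.17 with Torin1 did not pass (adjusted p = 0.0951 and 0.137, with the block 0.0367 and 0.0436). Without hypertonic WT array 1 or 2 or isotonic WT array 1 or 4 the WT call was lost, with adjusted p = 0.0934, 0.0766, 0.0737 and 0.0564.

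The box C/D proteins did not pass without the block. Nop56, a scaffold of these particles, read 12.004, 11.87 and 11.80 in hypertonic KO cells, against 11.60, 11.71 and 11.20 in isotonic KO cells. Nop56 read 11.83, 11.92 and 11.50 in hypertonic WT cells with Torin1, against 11.37, 11.53 and 10.89 in isotonic WT cells with Torin1. Nop56 was at 12.23, 12.25 and 11.82 in hypertonic WT cells, against 11.23, 11.86 and 11.62 in isotonic WT cells. The KO groups were apart and the WT groups overlapped through isotonic WT array 2 and hypertonic WT array 4, with changes of 0.39 ± 0.20 in KO cells, 0.49 ± 0.20 with Torin1 and 0.53 ± 0.20 in WT cells (adjusted p = 0.157, 0.214 and 0.114, with the block 0.0448 in KO and 0.0231 in WT cells). Fbl, the methyltransferase of box C/D snoRNPs, read 11.05, 10.93 and 10.85 in hypertonic KO cells, against 10.72, 10.71 and 10.45 in isotonic KO cells. Fbl read 11.17, 11.27 and 10.91 in hypertonic WT cells with Torin1, against 10.68, 10.84 and 10.59 in isotonic WT cells with Torin1. Fbl was at 11.25, 11.16 and 10.82 in hypertonic WT cells, against 10.75, 10.98 and 10.71 in isotonic WT cells. Only in WT cells without Torin1 did the groups overlap, and the changes of 0.31 ± 0.13, 0.41 ± 0.13 with Torin1 and 0.26 ± 0.13 in WT cells did not pass (adjusted p = 0.0866, 0.102 and 0.253). The other probe set of Fbl did pass in KO cells, at 0.56 ± 0.17 (adjusted p = 0.0329 over all probe sets), and with the block the changes in KO cells (0.0119) and with Torin1 (0.0119) passed. Nop58, the partner of Nop56, had changes of 0.31 ± 0.16 in KO cells, 0.02 ± 0.16 with Torin1 and 0.16 ± 0.16 in WT cells (adjusted p = 0.172, 0.969 and 0.647).

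Ncl and Npm1 encode abundant proteins of the nucleolus, and none of their changes passed. Ncl (nucleolin), which binds ribosomal RNA and DNA, read 11.56, 11.50 and 11.45 in hypertonic KO cells, against 11.38, 11.44 and 11.13 in isotonic KO cells. Ncl read 11.46, 11.54 and 11.10 in hypertonic WT cells with Torin1, against 11.38, 11.63 and 11.11 in isotonic WT cells with Torin1. Ncl was at 11.65, 11.63 and 11.24 in hypertonic WT cells, against 11.35, 11.44 and 11.14 in isotonic WT cells. KO groups were narrowly apart and WT groups overlapped, with changes of 0.19 ± 0.15, −0.01 ± 0.15 with Torin1 and 0.19 ± 0.15 in WT cells (adjusted p = 0.41, 0.987 and 0.523). Npm1 (nucleophosmin), a chaperone of the outer nucleolus, read 11.78, 11.73 and 11.91 in hypertonic KO cells, against 11.58, 11.67 and 11.63 in isotonic KO cells. Npm1 read 11.79, 11.47 and 11.73 in hypertonic WT cells with Torin1, against 11.63, 11.77 and 11.85 in isotonic WT cells with Torin1. Npm1 was at 11.68, 11.79 and 11.62 in hypertonic WT cells, against 11.53, 11.63 and 11.52 in isotonic WT cells. Its KO groups were apart and its changes of 0.18 ± 0.10, −0.08 ± 0.10 with Torin1 and 0.14 ± 0.10 in WT cells did not pass (adjusted p = 0.178, 0.759 and 0.444).

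Ddx21, a nucleolar RNA helicase, had the largest change of the set in KO cells. It read 11.38, 11.14 and 10.92 in hypertonic KO cells, against 10.32, 10.49 and 9.78 in isotonic KO cells. Ddx21 read 11.37, 11.27 and 10.52 in hypertonic WT cells with Torin1, against 10.51, 10.78 and 10.05 in isotonic WT cells with Torin1. Ddx21 was at 11.20, 10.89 and 10.71 in hypertonic WT cells, against 10.45, 10.93 and 10.30 in isotonic WT cells. Only the KO groups were apart, with the lowest hypertonic array above the highest isotonic one. Ddx21 rose by 0.95 ± 0.26 log2 in KO cells (adjusted p = 0.00995, and 0.054 without isotonic KO array 4), against 0.61 ± 0.26 with Torin1 and 0.37 ± 0.26 in WT cells (adjusted p = 0.236, with the block 0.0201, and 0.44). Mybbp1a, a nucleolar protein that binds Myb and takes part in ribosomal RNA synthesis, read 10.65, 10.49 and 10.59 in hypertonic KO cells, against 10.54, 10.47 and 10.51 in isotonic KO cells. Mybbp1a read 11.16, 11.30 and 10.44 in hypertonic WT cells with Torin1, against 10.72, 10.69 and 10.29 in isotonic WT cells with Torin1. Mybbp1a was at 11.05, 11.05 and 10.51 in hypertonic WT cells, against 10.68, 10.66 and 10.22 in isotonic WT cells. All its groups overlapped, and no change passed (0.07 ± 0.21 in KO cells, 0.40 ± 0.21 with Torin1 and 0.35 ± 0.21 in WT cells).

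Small subunit maturation, the largest group with 14 genes, had 5 increases in KO cells, 0 in WT cells with Torin1 and 1 in WT cells. Of all genes 12.9%, 1.65% and 3.94% were called higher in the same order. The medians of the group were 0.36, 0.36 and 0.42 log2. Bysl, needed for the last steps of small subunit maturation, was the only gene of the set that passed in both genotypes without Torin1. Bysl read 9.84, 9.77 and 9.63 in hypertonic KO cells, against 9.08, 8.99 and 8.60 in isotonic KO cells. Bysl read 9.14, 9.41 and 8.54 in hypertonic WT cells with Torin1, against 8.74, 8.58 and 8.46 in isotonic WT cells with Torin1. Bysl was at 9.95, 9.92 and 9.44 in hypertonic WT cells, against 8.54, 9.31 and 8.96 in isotonic WT cells. Hypertonic arrays were above isotonic arrays in both genotypes, and with Torin1 array 4 of the hypertonic group lay among the isotonic arrays. Bysl rose by 0.86 ± 0.22 log2 in KO cells (adjusted p = 0.00792), which held without any single array. It rose by 0.83 ± 0.22 in WT cells (adjusted p = 0.031), which was lost without hypertonic WT array 1 (0.137) or 2 (0.116) or isotonic WT array 1 (0.131) or 4 (0.0699). With Torin1 the change was 0.44 ± 0.22 (adjusted p = 0.349), and the difference from the response without Torin1 was −0.39 ± 0.31 (adjusted p = 1).

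Heatr1, a processome subunit that also acts in polymerase I transcription, read 9.86, 9.59 and 9.67 in hypertonic KO cells, against 9.16, 9.16 and 8.94 in isotonic KO cells. Heatr1 read 10.15, 10.13 and 9.37 in hypertonic WT cells with Torin1, against 9.42, 9.53 and 8.91 in isotonic WT cells with Torin1. Heatr1 was at 10.21, 10.16 and 9.68 in hypertonic WT cells, against 9.27, 9.87 and 9.34 in isotonic WT cells. KO groups were apart, and isotonic WT array 2 and hypertonic array 4 made the WT groups overlap. Heatr1 rose by 0.62 ± 0.22 log2 in KO cells (adjusted p = 0.0458, lost in 10 of 18 fits without 1 array). With Torin1 and in WT cells its changes were 0.60 ± 0.22 and 0.53 ± 0.22 (adjusted p = 0.176 and 0.167, with the block 0.0332 and 0.036). Wdr43, a subunit of the same early subcomplex, whose window holds the E-box, read 10.70, 10.64 and 10.36 in hypertonic KO cells, against 10.06, 10.12 and 9.85 in isotonic KO cells. Wdr43 read 10.55, 10.65 and 9.96 in hypertonic WT cells with Torin1, against 10.40, 10.35 and 9.86 in isotonic WT cells with Torin1. Wdr43 was at 10.70, 10.46 and 10.10 in hypertonic WT cells, against 10.23, 10.44 and 10.04 in isotonic WT cells. Its groups were apart in KO cells alone, where it rose by 0.56 ± 0.20 (adjusted p = 0.0449, lost in 9 of 18 fits without 1 array), against 0.18 ± 0.20 with Torin1 and 0.18 ± 0.20 in WT cells (adjusted p = 0.748 and 0.673).

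Utp20, a large scaffold protein of the processome, read 9.69, 9.68 and 9.88 in hypertonic KO cells, against 9.13, 9.14 and 9.08 in isotonic KO cells. Utp20 read 9.83, 9.77 and 9.15 in hypertonic WT cells with Torin1, against 9.26, 9.29 and 8.78 in isotonic WT cells with Torin1. Utp20 was at 9.82, 9.69 and 9.33 in hypertonic WT cells, against 9.05, 9.45 and 8.99 in isotonic WT cells. KO groups were apart. Utp20 rose by 0.63 ± 0.19 log2 in KO cells (adjusted p = 0.0186), which was lost without hypertonic KO array 4 (0.0632) or isotonic KO array 4 (0.0502), against 0.47 ± 0.19 with Torin1 and 0.45 ± 0.19 in WT cells (adjusted p = 0.207 and 0.166). Nob1, the endonuclease that makes the final cut of small subunit RNA, read 11.11, 11.14 and 11.005 in hypertonic KO cells, against 10.68, 10.65 and 10.54 in isotonic KO cells. Nob1 read 11.50, 11.62 and 11.21 in hypertonic WT cells with Torin1, against 11.26, 11.23 and 10.93 in isotonic WT cells with Torin1. Nob1 was at 11.48, 11.23 and 10.94 in hypertonic WT cells, against 11.09, 10.89 and 10.53 in isotonic WT cells. In KO cells the groups were apart and Nob1 rose by 0.46 ± 0.16 (adjusted p = 0.0351, lost in 5 of 18 fits without 1 array), against 0.31 ± 0.16 with Torin1 and 0.38 ± 0.16 in WT cells (adjusted p = 0.36 and 0.155, the WT change 0.0171 with the block). Of the rest of the group, Rrp9, a protein of the U3 snoRNP, had a change of 0.40 ± 0.30 in KO cells (adjusted p = 0.367, with the block 0.0319) and 0.70 ± 0.30 in WT cells (adjusted p = 0.175, with the block 0.00385), and Noc4l one of 0.59 ± 0.23 (adjusted p = 0.128, with the block 0.0351). Nop14 had changes of 0.15 ± 0.18 in KO cells, 0.19 ± 0.18 with Torin1 and −0.02 ± 0.18 in WT cells.

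Wdr75 and Utp15 belong to the same processome subcomplex as Heatr1 and Wdr43. Wdr75 had changes of 0.22 ± 0.15 in KO cells, 0.31 ± 0.15 with Torin1 and 0.37 ± 0.15 in WT cells (adjusted p = 0.151 in WT cells, with the block 0.0442). Those of Utp15 were 0.32 ± 0.16 in KO cells, 0.41 ± 0.16 with Torin1 and 0.49 ± 0.16 in WT cells (adjusted p = 0.0749 in WT cells, with the block 0.0232). Rrp12, which takes part in the export of precursors, had 0.54 ± 0.25 in KO cells, 0.64 ± 0.25 with Torin1 and 0.60 ± 0.25 in WT cells, and passed with the block in KO cells (0.0371) and in WT cells (0.047). The other 3 genes act on late precursors, and none of their changes passed with or without the block. Pno1, the partner of Nob1, had 0.09 ± 0.19 in KO cells, 0.30 ± 0.19 with Torin1 and 0.19 ± 0.19 in WT cells. For Ltv1 the changes were −0.05 ± 0.19 in KO cells, 0.41 ± 0.19 with Torin1 and 0.40 ± 0.19 in WT cells, and for Tsr1 they were 0.32 ± 0.25, 0.20 ± 0.25 and 0.26 ± 0.25 in the same order.

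Of the 10 large subunit genes with values, 3 rose in KO cells, 0 in WT cells with Torin1 and 2 in WT cells. The shares of all genes called higher were 12.9%, 1.65% and 3.94% in the same order. The medians of the group were 0.32, 0.32 and 0.40 log2. Gnl3 (nucleostemin), a GTPase of proliferating cells, was the clearest KO increase of the group. Gnl3 read 10.89, 10.75 and 10.79 in hypertonic KO cells, against 9.90, 9.84 and 9.90 in isotonic KO cells. Gnl3 read 10.05, 9.94 and 9.28 in hypertonic WT cells with Torin1, against 9.76, 9.91 and 9.53 in isotonic WT cells with Torin1. Gnl3 was at 10.52, 10.30 and 10.01 in hypertonic WT cells, against 9.62, 10.33 and 9.94 in isotonic WT cells. Hypertonic KO arrays all exceeded isotonic KO arrays, while both WT comparisons overlapped. Gnl3 rose by 0.93 ± 0.20 log2 in KO cells (adjusted p = 0.00206), which held without any single array, against 0.03 ± 0.20 with Torin1 and 0.31 ± 0.20 in WT cells (adjusted p = 0.974 and 0.389). The difference between the KO and WT responses was 0.62 ± 0.28 and did not pass (adjusted p = 0.205).

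Nop2, a methyltransferase of large subunit RNA whose window holds the E-box, read 11.12, 11.06 and 10.98 in hypertonic KO cells, against 10.26, 10.24 and 10.12 in isotonic KO cells. Nop2 read 10.76, 11.02 and 10.16 in hypertonic WT cells with Torin1, against 10.31, 10.31 and 9.91 in isotonic WT cells with Torin1. Nop2 was at 11.32, 11.07 and 10.45 in hypertonic WT cells, against 10.23, 10.48 and 9.997 in isotonic WT cells. KO groups were apart, and in WT cells only hypertonic array 4 and isotonic array 2 crossed. Nop2 rose by 0.84 ± 0.22 log2 in KO cells (adjusted p = 0.00833), which held without any single array. The changes of 0.47 ± 0.22 with Torin1 and 0.71 ± 0.22 in WT cells did not pass (adjusted p = 0.297 and 0.0586, the WT change 0.00486 with the block). Rrs1 helps bring the small ribosomal RNA of the large subunit into the particle. Rrs1 read 8.31, 8.52 and 9.06 in hypertonic KO cells, against 7.73, 7.56 and 8.29 in isotonic KO cells. Rrs1 read 7.78, 7.62 and 7.35 in hypertonic WT cells with Torin1, against 7.16, 7.44 and 6.38 in isotonic WT cells with Torin1. Rrs1 was at 7.99, 7.91 and 7.74 in hypertonic WT cells, against 7.19, 7.84 and 7.53 in isotonic WT cells. KO groups were narrowly apart and array 4 was the highest of both KO groups. Rrs1 rose by 0.77 ± 0.27 in KO cells (adjusted p = 0.0387, lost in 4 of 18 fits without 1 array), against 0.59 ± 0.27 with Torin1 and 0.36 ± 0.27 in WT cells (adjusted p = 0.276 and 0.485).

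Nop16 and Rrp1b, both nucleolar large subunit factors, were the WT increases of the group. Nop16 read 11.52, 11.32 and 10.82 in hypertonic WT cells, against 10.45, 10.82 and 10.44 in isotonic WT cells. Its lowest hypertonic value and highest isotonic value were equal at this precision, and Nop16 rose by 0.65 ± 0.15 log2 (adjusted p = 0.0158), a call lost without hypertonic WT array 1 (0.0902) or 2 (0.0696) or isotonic WT array 1 (0.0649) or 4 (0.0602). Nop16 was at 11.09, 11.08 and 11.02 in hypertonic KO cells, against 10.68, 10.74 and 10.63 in isotonic KO cells. Nop16 read 10.85, 10.96 and 10.64 in hypertonic WT cells with Torin1, against 10.43, 10.56 and 10.36 in isotonic WT cells with Torin1. Those groups were apart, with changes of 0.38 ± 0.15 and 0.37 ± 0.15 that did not pass (adjusted p = 0.0697 and 0.222, the KO change 0.0212 with the block). Rrp1b read 9.57, 9.51 and 9.39 in hypertonic WT cells, against 8.79, 9.12 and 8.96 in isotonic WT cells. Rrp1b was at 9.17, 8.89 and 9.26 in hypertonic KO cells, against 8.72, 8.94 and 8.86 in isotonic KO cells. Rrp1b read 9.10, 9.33 and 8.98 in hypertonic WT cells with Torin1, against 8.66, 8.83 and 8.74 in isotonic WT cells with Torin1. Both WT comparisons were apart and the KO groups overlapped. Rrp1b rose by 0.53 ± 0.12 in WT cells (adjusted p = 0.0135), a call lost without hypertonic WT array 1 (0.0653) or 2 (0.0506) or isotonic WT array 1 (0.0641), against 0.26 ± 0.12 in KO cells and 0.39 ± 0.12 with Torin1 (adjusted p = 0.119 and 0.0844).

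Bop1, Pes1 and Wdr12 form the PeBoW complex, which processes large subunit RNA, and their values differed. Bop1 read 10.29, 10.30 and 10.03 in hypertonic KO cells, against 9.74, 9.64 and 9.34 in isotonic KO cells. Bop1 read 10.40, 10.67 and 9.76 in hypertonic WT cells with Torin1, against 9.98, 10.002 and 9.39 in isotonic WT cells with Torin1. Bop1 was at 10.80, 10.71 and 10.13 in hypertonic WT cells, against 9.96, 10.14 and 9.50 in isotonic WT cells. KO groups were apart, and WT hypertonic array 4 lay below isotonic array 2. Bop1 had changes of 0.63 ± 0.24 in KO cells, 0.49 ± 0.24 with Torin1 and 0.68 ± 0.24 in WT cells (adjusted p = 0.0629, 0.347 and 0.102, with the block 0.000401, 0.0157 and 0.00136). Pes1 read 9.87, 9.69 and 9.60 in hypertonic KO cells, against 9.82, 9.84 and 9.55 in isotonic KO cells. Pes1 read 10.31, 10.29 and 9.76 in hypertonic WT cells with Torin1, against 9.94, 10.17 and 9.54 in isotonic WT cells with Torin1. Pes1 was at 10.19, 10.13 and 9.80 in hypertonic WT cells, against 9.91, 9.95 and 9.62 in isotonic WT cells. All groups of Pes1 overlapped, with changes of −0.02 ± 0.18, 0.23 ± 0.18 with Torin1 and 0.21 ± 0.18 in WT cells. Wdr12 had changes of 0.20 ± 0.16 in KO cells, 0.27 ± 0.16 with Torin1 and 0.44 ± 0.16 in WT cells (adjusted p = 0.398, 0.462 and 0.112, the WT change 0.0462 with the block). Its other probe set had changes of 0.42 ± 0.25, 0.51 ± 0.25 and 0.72 ± 0.25 in the same order. None of these passed (limma adjusted p = 0.344, 0.41 and 0.152 over all probe sets). The remaining large subunit genes, Noc3l and Gnl2, did not pass with or without the block. Noc3l had changes of 0.17 ± 0.11 in KO cells, 0.21 ± 0.11 with Torin1 and 0.20 ± 0.11 in WT cells, and Gnl2 had −0.05 ± 0.16, −0.15 ± 0.16 and −0.13 ± 0.16 in the same order.

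Torin1 against no Torin1 in the same medium asks whether mTOR activity sets the levels of these genes. In hypertonic WT cells 0 of the 44 genes passed (all genes 0.115%), with a median change of −0.14 log2, and in isotonic WT cells 0 passed (all genes 0%), with a median of −0.08. At an unadjusted p below 0.05, 9 genes of the set passed in hypertonic medium (all genes 12.1%) and 1 in isotonic medium (all genes 2.99%). The change was above 0 for 11 of 44 genes in hypertonic medium and 14 of 44 in isotonic medium, against 52.2% and 53.2% of all genes. With the array number as a block 2 genes fell in hypertonic medium (all genes 1.4%), Dkc1 and Rrp9, and 0 in isotonic medium.

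Dkc1 had the lowest p of the set in hypertonic medium, with 9.49, 9.56 and 8.99 in hypertonic WT cells with Torin1, against 10.29, 10.17 and 9.80 in hypertonic WT cells. Bysl followed, with 9.14, 9.41 and 8.54 in hypertonic WT cells with Torin1, against 9.95, 9.92 and 9.44 in hypertonic WT cells. For both genes every array with Torin1 lay below every array without it. Neither passed, at −0.74 ± 0.22 log2 for Dkc1 (adjusted p = 0.163, with the block 0.0321) and −0.74 ± 0.22 for Bysl (adjusted p = 0.167, with the block 0.0524). Rrp9 had a difference of −0.60 ± 0.30 (adjusted p = 0.448, with the block 0.0445). In isotonic medium Nop10 and Npm1 had the lowest p of the set, at −0.24 ± 0.09 and 0.19 ± 0.10 log2. For the difference between the hypertonic responses with and without Torin1, no gene of the set and no other gene passed (limma, 0 of 15711 called, 317 at an unadjusted p below 0.05 and 0 of these in the set). The median of that difference was −0.06 log2 over the set, Npm1 (−0.22 ± 0.14) and Dkc1 (−0.45 ± 0.31) having the lowest p. A typical 95% interval of such a difference reached 0.57 log2 to either side, so differences of the size of the hypertonic changes themselves could be missed. The sign of all 3 medians turned on single arrays. When 1 array was left out, the median of the set for Torin1 in hypertonic medium was −0.28 to 0.065 log2, above 0 without hypertonic Torin1 array 4. For Torin1 in isotonic medium it was −0.17 to 0.05, above 0 without isotonic WT array 2 or isotonic Torin1 array 4. For the difference of responses it was −0.18 to 0.13, above 0 without hypertonic Torin1 array 4, hypertonic WT array 1, isotonic Torin1 array 2 or isotonic WT array 4.

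KO against WT cells of the same medium asks how the line without Nfat5 differs. In hypertonic medium 1 of the 44 genes was higher and 4 were lower (11.4% of the set, against 31.9% of all genes tested, 13.8% higher and 18% lower), with a median of −0.15 log2 and 12 genes above 0. In isotonic medium 0 passed (all genes 14.6%, and at an unadjusted p below 0.05 1 gene of the set, against 26.1% of all genes), with a median of −0.07, which was −0.14 to 0.06 when 1 array was left out. Rrs1 was higher and Polr1e, Noc4l, Gar1 and Rrp1b were lower in hypertonic KO than in hypertonic WT cells. With the array number as a block 2 were higher and 9 lower (all genes 39.1%), adding Gnl3 among the higher and Dkc1, Rrp9, Bop1, Pes1 and Gnl2 among the lower (adjusted p = 0.0207, 0.0307, 0.023, 0.0185 and 0.0475 with the block), and in isotonic medium 1 was lower (all genes 20.9%). The count turned on single arrays: leaving out hypertonic WT array 1 or 2 left 2 or 1, leaving out hypertonic KO array 1, 2 or 4 left 3, 1 or 3, and leaving out isotonic KO array 1 or 2 left 3 each. Shares of all genes in these fits are not given. Setting array medians equal moved the median of all genes to 0.21 log2, against 0.04 as deposited, the share of calls that were higher to 72.2%, against 43.4%, and the set to 3 higher and 1 lower (all genes 45%) with a median of 0.03. The direction of the set against WT in hypertonic medium therefore depends on the scaling.

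Gar1, a core protein of box H/ACA snoRNPs, read 10.04, 10.28 and 10.61 in hypertonic KO cells, against 10.91, 10.91 and 10.67 in hypertonic WT cells. Its isotonic levels were 10.41, 10.57 and 10.51 in isotonic KO cells, against 10.41, 10.50 and 10.46 in isotonic WT cells. In hypertonic medium every KO array lay below every WT array, with KO array 4 close to WT array 4. Gar1 differed by −0.52 ± 0.12 log2 as KO minus WT (adjusted p = 0.00323), a call that held without any single array and with array medians equal (−0.35, adjusted p = 0.0434). Its hypertonic change was −0.18 ± 0.12 in KO cells and 0.37 ± 0.12 in WT cells, neither past the threshold. The difference of these responses, −0.56 ± 0.17, was the only one of the set to pass (adjusted p = 0.0489; 2.27% of the set, against 9.5% of all genes). It was lost in 16 of 18 fits without 1 array (adjusted p = 0.0537 to 0.124) and with array medians equal (−0.39, adjusted p = 0.195). Within the numbers 1, 2 and 4 the difference between hypertonic KO and WT cells was −0.87, −0.63 and −0.07.

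Polr1e read 8.51, 8.54 and 8.68 in hypertonic KO cells, against 9.64, 9.65 and 8.89 in hypertonic WT cells. Noc4l, which acts with Nop14 in export of small subunit precursors, read 9.45, 9.43 and 9.71 in hypertonic KO cells, against 10.34, 10.32 and 9.82 in hypertonic WT cells. All KO arrays of both genes lay below all WT arrays. Polr1e differed by −0.82 ± 0.29 log2 (adjusted p = 0.0429) and Noc4l by −0.63 ± 0.23 (adjusted p = 0.0468), and within numbers 1, 2 and 4 the differences were −1.14, −1.11 and −0.21 for Polr1e and −0.89, −0.89 and −0.11 for Noc4l. For both the difference was smallest in number 4, and both calls were lost with array medians equal, at −0.64 (adjusted p = 0.0713) and −0.45 (adjusted p = 0.105). Rrp1b read 9.17, 8.89 and 9.26 in hypertonic KO cells, against 9.57, 9.51 and 9.39 in hypertonic WT cells. It differed by −0.39 ± 0.12 (adjusted p = 0.0216), which was −0.21 and lost with array medians equal (adjusted p = 0.17). Rrs1 read 8.31, 8.52 and 9.06 in hypertonic KO cells, against 7.99, 7.91 and 7.74 in hypertonic WT cells. Every KO array of Rrs1 lay above every WT array, with a difference of 0.75 ± 0.27 (adjusted p = 0.0415) that grew to 0.93 with array medians equal (adjusted p = 0.0104). The difference of Gnl3 was 0.53 ± 0.20, short of the threshold (adjusted p = 0.0519, with the block 0.0255). In isotonic medium Gnl2, a GTPase of large subunit assembly, and Polr1a had the lowest p, at −0.37 ± 0.16 (adjusted p = 0.156, with the block 0.0264) and 0.22 ± 0.11 log2 (adjusted p = 0.201).

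Array number moved with the level of the whole set. Over the 44 genes the mean level on arrays 1, 2 and 4 was 10.21, 10.13 and 10.16 log2 in hypertonic KO cells, against 9.87, 9.87 and 9.72 in isotonic KO cells. With Torin1 it was 10.30, 10.37 and 9.79 in hypertonic WT cells, against 9.89, 9.98 and 9.57 in isotonic WT cells. Without Torin1 it was 10.49, 10.40 and 10.03 in hypertonic WT cells, against 9.81, 10.12 and 9.75 in isotonic WT cells. Array 4 had the lowest mean in every group but hypertonic KO cells, and each hypertonic array lay above the isotonic array of its number. In hypertonic WT cells array 4 was the lowest of its group for 41 of the 44 genes, against 52.7% of all genes, and in hypertonic WT cells with Torin1 for 41, against 39% of all genes. In hypertonic KO cells it was lowest for 22 genes, against 48.9% of all genes. In isotonic medium array 4 was lowest for 30 genes in KO cells (all genes 45.8%) and 38 in WT cells with Torin1 (all genes 45.6%). In isotonic WT cells without Torin1 it was lowest for 25 (all genes 37.1%) and array 1 for 19.

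**Figure D4:**
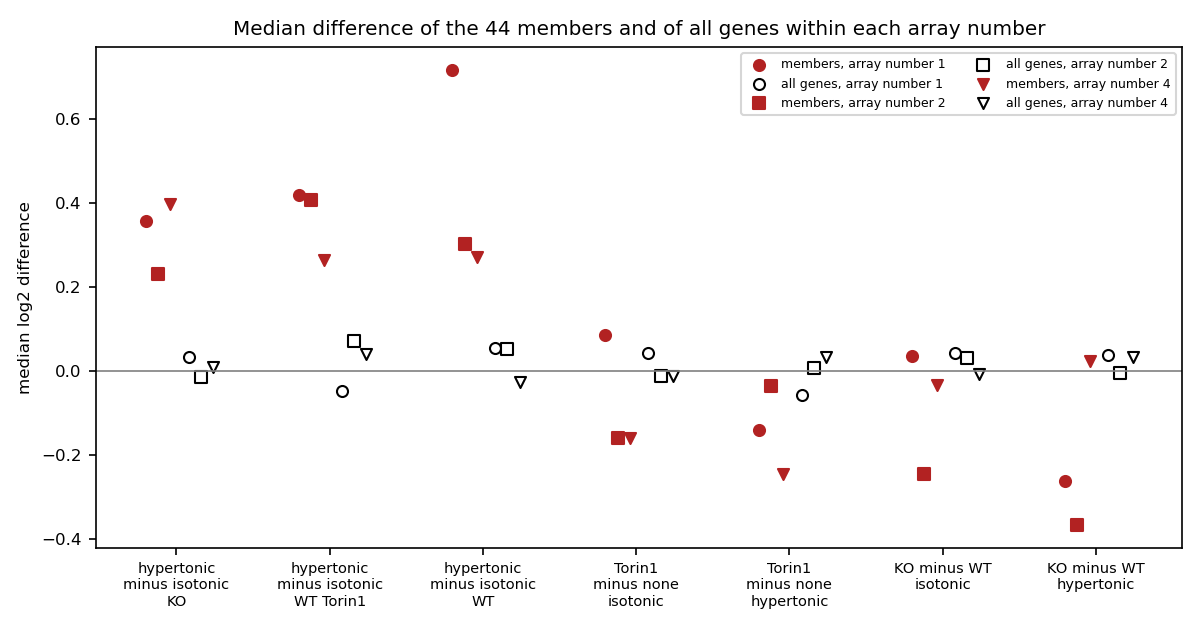
Median difference (log2, vertical axis) within array numbers 1, 2 and 4 over the 44 genes (filled) and over all 15711 genes (open), for the 7 comparisons of 2 groups. In the 3 hypertonic comparisons the medians of the set lie between 0.23 and 0.72, and those of all genes in the 7 comparisons lie between −0.06 and 0.07.

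Within numbers 1, 2 and 4 the median hypertonic change of the set was 0.36, 0.23 and 0.40 log2 in KO cells, 0.42, 0.41 and 0.26 in WT cells with Torin1 and 0.72, 0.30 and 0.27 in WT cells. All 9 values were above 0. For Torin1 the medians within these numbers were −0.14, −0.04 and −0.25 in hypertonic medium and 0.08, −0.16 and −0.16 in isotonic medium. For KO minus WT they were −0.26, −0.37 and 0.02 in hypertonic medium and 0.04, −0.25 and −0.03 in isotonic medium. Without the arrays of number 4, 16 genes passed in WT cells with Torin1 (all genes 9.95%) and 27 in WT cells (all genes 21.2%). What the numbers stand for is not stated, and their part in these counts was not tested.

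Other genes of ribosome synthesis were listed by name, with earlier results of these data known. Beside them, 30.1% of all genes were called in KO cells (12.9% higher and 17.2% lower). In WT cells with Torin1 3.37% were called (1.65% higher and 1.72% lower), and in WT cells 8.24% (3.94% higher and 4.3% lower). Of 43 other small subunit genes 13 rose and 4 fell in KO cells, 1 rose in WT cells with Torin1 and 7 rose in WT cells, with medians of 0.16, 0.20 and 0.28 log2. In KO cells Utp4, a processome subunit, rose by 0.77 ± 0.22 (limma adjusted p = 0.0149), while Tsr2 and Rrp36 fell (−0.62 ± 0.12 and −0.61 ± 0.11, adjusted p = 0.000808 and 0.000677). Dhx37, a helicase that releases the U3 snoRNA, rose by 0.65 ± 0.15 in WT cells with Torin1 (adjusted p = 0.0228) and by 0.67 ± 0.15 in WT cells (adjusted p = 0.0118). Of 45 other large subunit genes 12 rose and 3 fell in KO cells, 1 rose in WT cells with Torin1, and 6 rose and 1 fell in WT cells, with medians of 0.22, 0.18 and 0.28. Nol8 rose in all 3 comparisons, by 0.81 ± 0.14 in KO cells, 0.57 ± 0.14 in WT cells with Torin1 and 0.63 ± 0.14 in WT cells (adjusted p = 0.000358, 0.0303 and 0.0108). Mdn1, a giant ATPase that strips factors from large subunit precursors, rose by 0.70 ± 0.16 in KO cells (adjusted p = 0.00309) and by 0.63 ± 0.16 in WT cells (adjusted p = 0.0234). Sbds, a factor of the last large subunit step, fell in WT cells (−0.42 ± 0.11, adjusted p = 0.0329).

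Of 15 other polymerase I genes 1 rose and 2 fell in KO cells, with 0 calls in WT cells with Torin1 and 0 in WT cells, and the medians were −0.10, 0.02 and 0.15 log2. Taf1b, a subunit of the selectivity factor that finds the ribosomal promoter, fell in KO cells (−1.42 ± 0.26, adjusted p = 0.000585), as did the terminator-binding factor Ttf1 (−0.57 ± 0.14, adjusted p = 0.00576), while Tcof1 rose (0.48 ± 0.16, adjusted p = 0.0342). Of 22 genes of the exosome and of snoRNP assembly 2 rose and 6 fell in KO cells and 0 passed in WT cells with or without Torin1, with medians of −0.08, 0.10 and 0.11. Mphosph6, an exosome cofactor, fell in KO cells (−1.10 ± 0.13, adjusted p = 2.35e-05). Of 13 polymerase III genes 3 rose and 1 fell in KO cells, 0 passed in WT cells with Torin1, and 1 fell in WT cells. In hypertonic KO against hypertonic WT cells 12 of the 43 small subunit genes and 6 of the 45 large subunit genes were lower. So were 4 of the 15 polymerase I genes and 7 of the 22 exosome and snoRNP genes, against 18% of all genes. In the same order 1, 0, 0 and 0 were higher, against 13.8% of all genes (31.9% called in either direction). With array medians equal, 72.2% of all calls in this comparison were higher, against 43.4% as deposited.

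Among 12 genes of the Myc network, which share Max as a partner or bind beside it, 3 rose and 1 fell in KO cells (all genes 30.1%). In WT cells with Torin1 1 rose (all genes 3.37%), and in WT cells 2 rose and 1 fell (all genes 8.24%). Mga rose in all 3 comparisons, by 0.51 ± 0.10 in KO cells, 0.41 ± 0.10 in WT cells with Torin1 and 0.48 ± 0.10 in WT cells (adjusted p = 0.00118, 0.0399 and 0.00974). Mxd1, a Max partner that opposes Myc, rose by 0.98 ± 0.15 in KO cells (adjusted p = 0.000172), and Mnt, another such partner, fell in WT cells (−0.65 ± 0.14, adjusted p = 0.0113). Of 19 cell division genes 1 fell in KO cells, 0 passed in WT cells with Torin1 and 1 fell in WT cells, with medians of −0.23, −0.08 and −0.22 log2. The part of cell division in the changes of the set was not tested.

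Some values of the set are uncertain because of their neighbours. In RefSeq, Polr1e, Nop56, Dkc1, Nhp2, Gnl3, Gnl2, Bysl, Bop1, Wdr12, Tsr1 and Mybbp1a overlap another gene, for example Bysl with Ccnd3 and Nop56 with Idh3b. Ncl, Nop56, Nop58, Gnl3, Wdr43, Tsr1 and Dkc1 hold snoRNA genes in their bodies, and Fbl has a pseudogene. Which of these RNAs the probes read was not tested. Polr1d, Fbl and Wdr12 have 2 probe sets each, and which of them reads the named gene itself was not tested either.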

How the data were processed

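Total RNA of mouse embryonic fibroblasts was read on 18 Affymetrix arrays. The authors deposited RMA signals on the log2 scale, and per the submitters' processing notes R 2.11.1 was used. The values entered the tests with no further normalization. Of 34760 probe sets 21640 name 1 gene. For each of 19937 genes the probe set of highest mean was used. A gene was tested, as 15711 were, if its mean in at least 1 group exceeded 5.86 log2, the 30th percentile of the deposited values. limma 3.58.1 in R 4.3.3 fitted 1 mean per group to all 18 arrays (12 residual and 3.29 prior degrees of freedom). It tested 9 contrasts, with the Benjamini-Hochberg adjustment over all genes and calls at an adjusted p below 0.05. On simulated data of 15711 genes for the hypertonic effect in WT cells it found 79 of 100 genes changed by 1 log2 and 96 of 100 changed by 2, with 5 of 180 calls false. The simulated noise was independent between arrays, with 1 spread per gene in all groups and no part shared by array number. The rates in the real arrays may therefore differ.

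Arrays of the same number in compared groups correlated after removal of group means (r = 0.156 to 0.847 over genes, and 15 of 18 arrays were closest to one of their own number), so the numbers pair the arrays. The fit with the number as a block is given beside results it changes. Alternatives were no filter, a stricter filter (50th percentile), probe sets averaged per gene, a further quantile normalization, arrays centred on their medians, a trended and robust prior, only the groups of a contrast, isotonic KO array 1 counted as WT, no arrays of number 4, and each array left out in turn.

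The 46 genes and the further lists were chosen with earlier results of these data known. Every array's values are given for 21 genes that cover the roles and for genes among the 6 largest calls of a contrast. Other called genes are given by change and standard error, the 2 genes of lowest p where none passed, and up to 4 genes of a further list; some of these are left out. Printed promoter windows were chosen after values and motif matches were seen, in place of the rule set for them. Precision is limited by the number of arrays, 3 per group. Promoter sequences and gene names are from RefSeq (GRCm38.p6). No source used here gives a genome build for the arrays.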

Additional observations from a re-analysis of the deposited data

Results flagged for a closer look

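The hypertonic response of Gar1 differed between the genotypes, by −0.56 log2 as the response in KO cells minus that in WT cells (limma adjusted p = 0.0489). The response was −0.18 ± 0.12 in KO cells and 0.37 ± 0.12 in WT cells, and within numbers 1, 2 and 4 the difference of responses was −0.86, −0.69 and −0.11. The call was lost without 16 of the 18 arrays taken one at a time (adjusted p = 0.0537 to 0.124).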

How the results depend on the processing

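With the array number as a replicate block, 21 genes of the set passed for hypertonic medium in KO cells (all genes 36.3%). In WT cells 10 passed with Torin1 (all genes 7.86%) and 23 without it (all genes 15%). For Torin1 in hypertonic medium 2 passed (all genes 1.4%). For KO minus WT 11 passed in hypertonic medium (all genes 39.1%) and 1 in isotonic medium (all genes 20.9%). The pairing changed no other count by over 1.5 times and ended none of 26 calls. Fitted on only the groups of the contrast, 18 genes passed in KO cells (all genes 29.2%). In WT cells 0 passed with Torin1 (all genes 0.146%) and 0 without it (all genes 1.7%). Without the arrays of number 4, 16 passed with Torin1 (all genes 9.95%) and 27 in WT cells (all genes 21.2%). For Torin1 in hypertonic medium 2 then passed (all genes 4.77%). For KO minus WT 16 passed in hypertonic medium (all genes 40.2%) and 3 in isotonic medium (all genes 24.2%). For the KO response minus the WT response 4 passed (all genes 17.9%). That last count was 0 with no filter, quantile normalization, centred arrays, a trended prior, only the groups of the contrast, or isotonic KO array 1 counted as WT. So counted, 6 passed in KO cells (all genes 21.9%) and 11 in WT cells (all genes 9.95%). For KO minus WT in hypertonic medium 3 passed (all genes 27.9%). Quantile normalization gave 2 with Torin1 (all genes 4.66%) and 2 for KO minus WT in hypertonic medium (all genes 32.1%). Centring gave 27 in KO cells (all genes 39%). Leaving out 1 array gave 5 to 15 in KO cells, 1 to 5 with Torin1 and 1 to 15 in WT cells. It gave 0 to 1 for Torin1 in hypertonic and 0 in isotonic medium, 1 to 7 for KO minus WT in hypertonic and 0 in isotonic medium, 0 to 2 for the KO difference of responses and 0 for that of Torin1. Shares of all genes in the fits without 1 array are not given. The median of the set for Torin1 in hypertonic medium ranged from −0.28 to 0.065 when 1 array was left out, the value above 0 without hypertonic WT Torin1 array 4. The causes were not tested. Of 26 single calls 7 held without any 1 array. With 3 arrays per group, changes of single genes of the set below about 0.40 log2 mostly did not pass, and larger ones could be missed too. In WT cells the hypertonic changes of Polr1e (0.79 log2) and Polr1b (0.73 log2) did not pass. On simulated data for that comparison, which lacked variation shared by array number, 79 of 100 genes changed by 1 log2 were found. A gene that did not pass is therefore not shown to be unchanged.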
